A study of Lumnitzera littorea with 6 samples.

Results

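The gene models described here were well expressed in control seedlings of the mangrove tree Lumnitzera littorea and kept only a small part of that level in chilled seedlings. They were chosen on CPM, each count divided by the total of its library and scaled to 1000000 counts. A member had at least 10 CPM in every control library, and its highest chilling CPM was at most its lowest control CPM divided by 4. Of 26139 gene models in the table, 11280 passed the first condition and are called well expressed below. Of these, 123 (1.09%) also met the second and are the members. The second condition compares chilling with control, so the members' fall describes how they were picked and is given without a test. The count leaned on libraries numbered 3: 267 gene models met the rule without control replicate 3 and 300 without chilling replicate 3.

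RNA was sequenced from wild-type seedlings 1 year old, grown with 12 h of light a day. The control group (n = 3 libraries) had days of 25°C and nights of 23°C, for 48 h per the labels. The chilling group (n = 3 libraries) had days of 8°C and nights of 5°C, and no duration is stated for it. Every library mixes leaf, shoot and root RNA in proportions that are not stated, so that a smaller contribution of an organ or cell type and less transcript per cell cannot be told apart. Whether libraries of the same group derive from different plants is not stated. Organ markers could not be checked, because identifiers are not paired with gene names here, and for the same reason no function is given for any member.

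Mangroves are tropical trees of the tidal zone and most of them tolerate cold poorly. In plants of warm climates, cooling above the freezing point slows enzymes and membrane transport, lowers photosynthesis and halts growth. It sets off calcium signals and a cascade of transcription factors, of which the ICE and CBF families are the textbook example from Arabidopsis. Transcript levels fall when a gene is transcribed less or its RNA is degraded faster, and counts of reads do not separate these routes.

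Library totals ran from 27982493 to 41203847 counts, and all control libraries were deeper than all chilling libraries. The median well expressed gene model stood at 40.7, 41.8 and 38.3 CPM in the control libraries, in replicate order, and at 29.8, 31.5 and 34.7 CPM in those of the chilling group. On this scale the whole class therefore sat somewhat lower under chilling, with a median residual (the chilling mean as a percentage of the control mean) of 74.5%. With library sizes scaled by the trimmed mean of M-values (TMM), 75 of the 123 members still met the rule. Gene lengths were not used here, so a level is compared between libraries for the same gene model, and the order of gene models by count is an order of reads and not of transcripts per cell.

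The members kept a median of 11.6% of their control level. Their residual ranged from 0.901% to 20.3%, and the middle of the distribution lay between 7.86% and 14.9% (quartiles). The median member had 36.6, 37.8 and 34.4 CPM in the control libraries and 3.32, 3.95 and 4.02 CPM in the chilling libraries, in replicate order. Medians of the members were thus close to those of all well expressed gene models in the control libraries and far below them in every chilling library. Residuals below 5% were found in 11 members and below 10% in 46. In 75 members the chilling mean was below 5 CPM, and in 2 it was below 1 CPM.

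**Figure D1:**
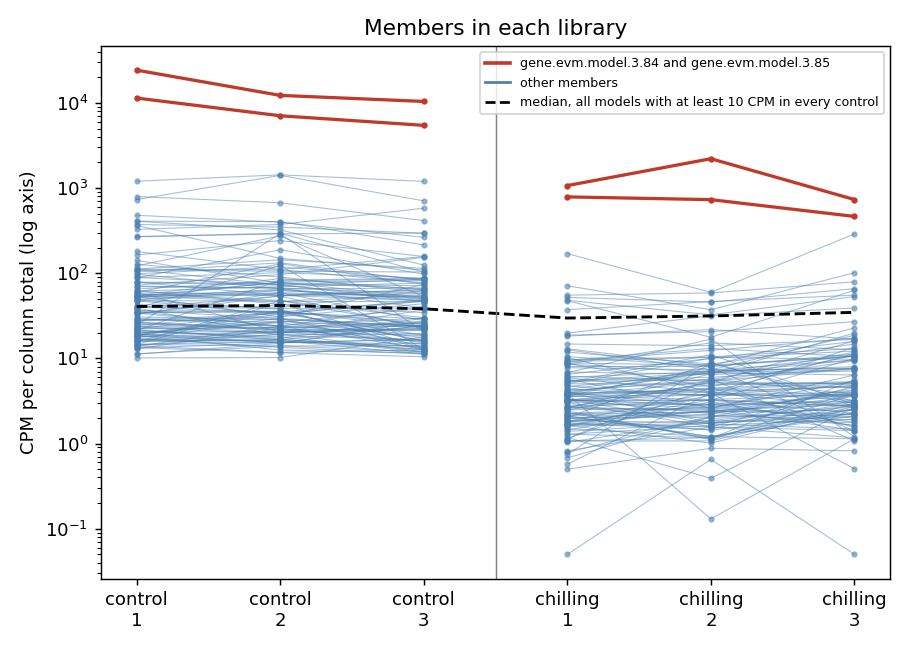
CPM of the 123 members (points joined by lines within a group, log axis) in the 3 control and 3 chilling libraries, with gene.evm.model.3.84 and its neighbour gene.evm.model.3.85 in red and the median of all 11280 well expressed gene models as a dashed line. A count of 0, found in chilling replicates 1 and 3 for a single member, is drawn at 0.05 CPM; the member lines start at or above 10 CPM in control and mostly run below the dashed line in chilling.

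Reads behind these residuals were ample for most members. A member had a median of 113 counts in a chilling library (quartiles 66 and 242). Only 2 members had under 10 counts in any chilling library, and 1 of them had a count of 0. In edgeR's quasi-likelihood fit over 19487 gene models, all 123 members were called lower (adjusted p under 0.05, Benjamini-Hochberg), where 14.6% of all tested and 19.6% of well expressed gene models were. Every chilling library lay below every control library in 44.6% of well expressed gene models, which the rule demands of members. Their median log2 fold change on the TMM scale was -2.81, beside -0.11 for well expressed and -0.02 for all tested gene models. The rule used the same libraries, so nothing is read from this count. The reverse rule, with the groups exchanged, was met by 346 of the 10226 gene models with at least 10 CPM in every chilling library.

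Most of the counts given up came from a pair of gene models. The members together held 4.62%, 3.11% and 2.47% of all counts in the control libraries, in replicate order, and 0.283%, 0.382% and 0.261% in those of the chilling group. Their mean share was 3.40% ± 1.11 (SD, n = 3) in control and 0.309% ± 0.0642 (SD, n = 3) under chilling. The mean share thus differed by -3.09 percentage points, and by -2.48 without control replicate 1. Over the 13967 gene models with a lower mean CPM under chilling, the lost CPM summed to 34.0% of counts, and the members made up 9.10% of that sum. Within the members, gene.evm.model.3.84 and gene.evm.model.3.85 made up 69.9% of the loss, the 10 with the highest control mean 83.2%, and 27 members were enough for 90% of it.

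The other 121 members gave up far less together than this pair. Without the pair, the members' share was 1.06%, 1.18% and 0.881% in control libraries 1 to 3, while chilling libraries 1 to 3 had 0.0976%, 0.0873% and 0.141%. The order of the chilling libraries turned with the pair removed: replicate 3 had the lowest member share with it and the highest without it. By control level, 3 members had a mean of at least 1000 CPM and lost 2.27% of counts, and 20 members between 100 and 1000 CPM lost 0.484%. The 29 members between 50 and 100 CPM lost 0.179%, the 48 between 20 and 50 CPM lost 0.126%, and the 23 below 20 CPM lost 0.0311%. The median residual in these classes, from the highest to the lowest control level, was 8.56%, 8.87%, 10.3%, 11.4% and 13.0%.

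**Figure D2:**
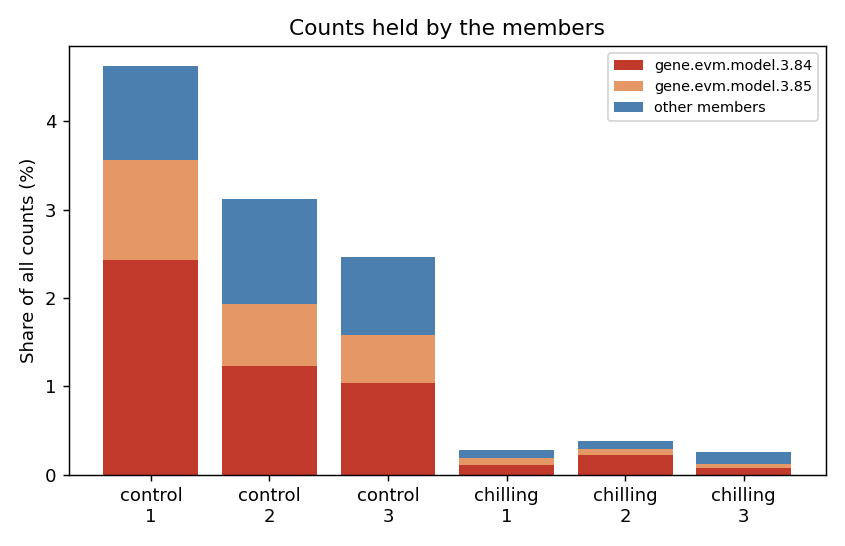
Share of all counts (%) held by gene.evm.model.3.84, by gene.evm.model.3.85 and by the other 121 members, stacked, in each library. The stacks reach 4.62%, 3.11% and 2.47% in control and 0.283%, 0.382% and 0.261% in chilling replicates 1 to 3. Most of the height is the pair, except in chilling replicate 3, where the pair makes up 45.9%.

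gene.evm.model.3.84 held more control counts than any other gene model in the table. It stood at 24254, 12258 and 10404 CPM in control and at 1070, 2212 and 733.0 CPM in chilling replicates 1 to 3. Control replicate 1 was far above the other controls and chilling replicate 2 above the other chilling libraries, and the groups did not overlap. Its residual was 8.56%.

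gene.evm.model.3.85, numbered next to it, was the third in the control ranking. It stood at 11403, 7064 and 5454 CPM in control and at 788.1, 731.6 and 464.4 CPM in chilling replicates 1 to 3, a residual of 8.29%. In control both gene models were highest in replicate 1 and lowest in replicate 3. The ratio of their counts was 2.13, 1.74 and 1.91 in control and 1.36, 3.02 and 1.58 in chilling replicates 1 to 3, so that it varied more among chilling libraries.

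Among the members, the next in control level was gene.evm.model.97.247, which ranked 50 in the whole table, with 1203, 1432 and 1199 CPM in control and 170.2, 59.7 and 289.3 CPM in chilling replicates 1 to 3. Its control libraries agreed within a factor of 1.19, and its chilling libraries spread 4.85-fold. gene.evm.model.9.357 had 734.3, 1410 and 708.5 CPM in control and 71.3, 37.2 and 101.5 CPM in chilling replicates 1 to 3, with control replicate 2 apart from the others. gene.evm.model.7.512 had 796.0, 671.4 and 414.9 CPM in control and 37.4, 46.5 and 55.3 CPM in chilling replicates 1 to 3. The residuals of these gene models were 13.5%, 7.37% and 7.39%. Altogether 4 members were among the 100 gene models with the highest control mean, and 14 among the highest 1000.

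**Figure D3:**
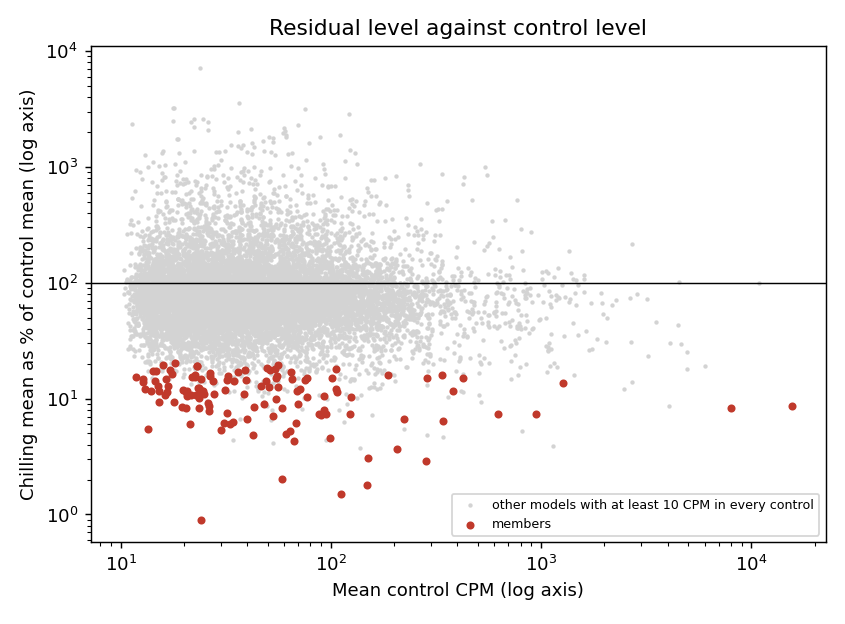
Chilling mean as a percentage of the control mean against the mean control CPM (both axes log) for the 123 members (red) and the other well expressed gene models (grey), with a line at 100%. The members lie between 0.901% and 20.3% and 2 of them stand far to the right; some grey points are as low, because the rule compares the nearest libraries of the groups and not the means.

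The widest gap between the groups, measured from the highest chilling to the lowest control library, was found in gene.evm.model.64444.52. It had 14.6, 44.7 and 13.2 CPM in control and 0, 0.652 and 0 CPM in chilling replicates 1 to 3. All 20 of its chilling counts came from replicate 2, against 2708 control counts, and the pooled residual was 0.940% with an exact 95% counting interval of 0.573% to 1.45%. gene.evm.model.31.81 had 180.3, 110.6 and 157.0 CPM in control and 1.14, 5.77 and 1.08 CPM in chilling replicates 1 to 3, and chilling replicate 2 held most of its remaining counts. In these members the gap was 20.2-fold and 19.2-fold, and no other member had a gap of at least 16-fold.

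Gaps of 12.7-fold to 13.6-fold came next, in members whose libraries varied less within each group. gene.evm.model.7.712 had 14.6, 14.02 and 11.9 CPM in control and 0.50, 0.881 and 0.823 CPM in chilling replicates 1 to 3. gene.evm.model.5.15 had 111.5, 109.8 and 77.2 CPM in control and 4.11, 5.74 and 3.80 CPM in chilling replicates 1 to 3. gene.evm.model.39.32 had 77.9, 72.4 and 50.9 CPM in control and 4.003, 1.76 and 2.94 CPM in chilling replicates 1 to 3. The gap was at least 8-fold in 15 members, these included. The median gap over the 123 members was 4.95-fold, close to the limit of 4-fold that admits a member.

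Values on both sides of the limits were alike. Just inside the 4-fold limit, the highest chilling CPM was 25.0% of the lowest control CPM in gene.evm.model.57.123 and 24.9% in gene.evm.model.34.21 and 24.8% in gene.evm.model.45.738. Just outside it, the same percentage was 25.0% in gene.evm.model.4.288, 25.1% in gene.evm.model.50032.1 and 25.1% in gene.evm.model.7.1144. Just inside the 10 CPM limit, the lowest control value was 10.1 CPM in gene.evm.model.45.25 and 10.5 CPM in gene.evm.model.12.582. Just outside it stood gene.evm.model.69.32 with 9.67 CPM and gene.evm.model.64471.188 with 9.30 CPM. Another 210 gene models met the 4-fold limit below 10 CPM.

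The members varied among libraries of the same group. The highest control library exceeded the lowest by a median of 1.54-fold in members and 1.33-fold in the other 11157 well expressed gene models. Under chilling the corresponding medians were 1.75-fold (122 members with a count in every chilling library) and 1.52-fold. The median SD of log2 CPM was 0.33 in control and 0.42 in chilling libraries for members, and 0.21 and 0.32 for the others. A control range above 2-fold was found in 30 members (24.4%) and in 12.3% of the others. A chilling range above 2-fold was found in 47 members (38.2%) and in 19.8% of the others. The rule sets limits on the lowest control and the highest chilling value, and the members' chilling counts are smaller, so these shares are side by side as a description and were not tested.

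A few members had a control mean that rested mostly on replicate 2. gene.evm.model.6.626 had 24.6, 291.6 and 20.5 CPM in control and 3.82, 0.130 and 1.14 CPM in chilling replicates 1 to 3. Its control range of 14.2-fold and its chilling range of 29.3-fold were both the widest among members with a count in every library. gene.evm.model.38.16 had 38.7, 123.9 and 12.8 CPM in control and 0.822, 1.57 and 1.17 CPM in chilling replicates 1 to 3. gene.evm.model.64444.60 had 122.1, 274.3 and 53.2 CPM in control and 2.00, 8.97 and 2.75 CPM in chilling replicates 1 to 3. All of these were highest in control replicate 2. Of the 30 members with a control range above 2-fold, 11 (36.7%) were highest in control replicate 1. Another 13 (43.3%) were highest in replicate 2 and 6 (20%) in replicate 3. Among the other well expressed gene models with such a range, the shares were 28.7%, 28.7% and 42.6%. The rule limits the lowest control library of members, and the difference was not tested.

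Other members spread widely among the chilling libraries. gene.evm.model.1.36 had 407.4, 323.0 and 124.9 CPM in control and 6.79, 16.9 and 1.20 CPM in chilling replicates 1 to 3. gene.evm.model.3.316 had 55.2, 86.6 and 63.9 CPM in control and 0.750, 8.87 and 3.13 CPM in chilling replicates 1 to 3. gene.evm.model.1.37 had 16.7, 20.1 and 21.7 CPM in control and 0.572, 3.91 and 0.506 CPM in chilling replicates 1 to 3. These were the members with the widest chilling range among those whose every chilling library held at least 10 counts, and all were highest in replicate 2. Of the 22 members with a count in every chilling library and a range above 3-fold, 9 were highest in chilling replicate 2, 12 in replicate 3 and 1 in replicate 1. Among the other well expressed gene models with such a range, 42.3% were highest in chilling replicate 2, 44.4% in replicate 3 and 13.2% in replicate 1.

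Over all members, chilling replicate 3 kept the most. It was the highest chilling library in 76 of 123 members (61.8%) and in 57.3% of the other well expressed gene models. On the CPM scale the whole class thus leaned the same way. Chilling replicate 1 was the lowest in 60 members (48.8%) and in 43.8% of the others. In control, replicate 3 was the lowest in 69 members (56.1%) and in 56.0% of the others. The median member deviated from its group mean by 0.26 on the log2 scale in chilling replicate 3, against 0.17 in the others, and with TMM-scaled library sizes by 0.13 against 0.04.

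Each library was also read for gene models chosen without it. The control values took part in choosing for the left-out chilling libraries, so only the left-out chilling level itself was unused. With chilling replicate 1 left out, 132 gene models met the rule in the other 5 libraries, and their median level in replicate 1 was 10.4% of the control mean, against 12.8% in the chilling libraries used. With chilling replicate 2 left out, 172 met it, with 12.7% in replicate 2 against 12.1%. With chilling replicate 3 left out, 300 met it, with 22.2% in replicate 3 against 12.7%. The median over all well expressed gene models in these readings was 66.6%, 71.0% and 81.5%. In chilling replicates 1 and 3 every chosen gene model lay below all control libraries, and in replicate 2 all but 1 did. The 123 members among them do so by the rule. The matching share of all well expressed gene models in a single chilling library was not computed. With all chilling libraries together, a stricter condition, it was 44.6%. The counts therefore lack a matching share, and nothing is read from them. Set against the mean of the other chilling libraries, the left-out level had a median of 81.9% in replicate 1, 114.2% in replicate 2 and 181.2% in replicate 3, where all well expressed gene models had 87.3%, 94.8% and 117.8%. For the gene models chosen without it, replicate 3 thus stood higher than the chilling libraries used. The rule holds the libraries used low, which by itself raises a left-out library beside them. The chosen gene models also differ between the readings. Those that also met the limit in the left-out library were the 123 members each time. Their shares of 93.2%, 71.5% and 41.0% for replicates 1 to 3 therefore only restate the numbers chosen.

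The control libraries were read in the same way, and here replicate 3 stood lowest beside the others of its group. Without control replicate 1, 163 gene models met the rule, and the chilling mean was 13.5% of replicate 1 against 11.1% of the control libraries used. Without control replicate 2, 149 met it, with 12.6% against 12.9%. Without control replicate 3, 267 met it, with 18.9% against 11.4%, and 18 of them did not exceed all chilling libraries in replicate 3. Their median level in control replicate 3 was 59.3% of the mean of the other controls, where that of all gene models passing 10 CPM in those controls was 88.1%. The rule holds the controls used high, which by itself lowers a left-out control beside them. The chilling libraries took part in these choices, so only the left-out control level is an independent reading. How many of all gene models exceeded the chilling libraries in control replicate 3 was not counted, and the 123 members do so by the rule.

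**Figure D4:**
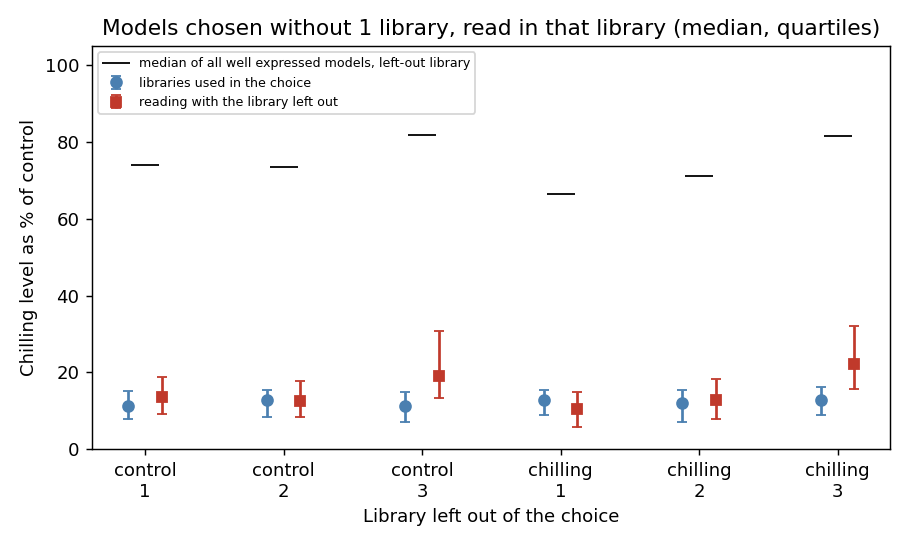
Chilling level as a percentage of control for gene models chosen without 1 library, in the libraries used (blue circles) and with the left-out library in place of its group's others (red squares); markers are medians over gene models and bars the quartiles. Black dashes mark the median of all gene models passing 10 CPM in the control libraries used; readings reach 18.9% without control replicate 3 and 22.2% without chilling replicate 3.

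Members were spread over 60 of the 294 first numbers that occur in identifiers of well expressed gene models. The first number 3 had the most members, 9 of its 478 well expressed gene models (1.88%), followed by 1 with 6 of 246 (2.44%). The first numbers 7, 11, 12 and 38 had 5 each, which for 38 was 5 of 135 (3.70%). Shares were higher for some first numbers with few well expressed gene models, such as 64444 with 3 of 11 (27.3%). What the first number stands for is not given in the sources used here. Only 3 pairs of members had consecutive second numbers, and no run was longer. Of the 14 other gene models that the table holds within 3 numbers of these pairs, 5 were called lower and 2 higher (edgeR, adjusted p under 0.05), where 14.6% of all tested gene models were called lower and 16.2% higher. Among these calls, that of gene.evm.model.1.40 (higher) was lost in all 6 fits that left out 1 library, that of gene.evm.model.1.34 (lower) in 4 and that of gene.evm.model.1.33 (higher) in 3, and all of these were lost with the replicate number as a block.

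Gene models flanking the most abundant pair were mixed. gene.evm.model.3.83 was not a member, with 8665, 1704 and 1816 CPM in control and 283.5, 718.6 and 50.1 CPM in chilling replicates 1 to 3. Its groups did not overlap, but its chilling replicate 2 was too high for the rule, and it did not pass the test (log2 fold change -3.14, SE 1.13, edgeR adjusted p = 0.0773). Like gene.evm.model.3.84, it was highest in control replicate 1 and chilling replicate 2. Together these 3 gene models held 4.43%, 2.10% and 1.77% of counts in control and 0.214%, 0.366% and 0.125% in chilling replicates 1 to 3. On the other sides, gene.evm.model.3.82 had 80.5 to 88.3 CPM in control and 91.6 to 111.1 CPM in chilling libraries, and gene.evm.model.3.86 had at most 3.12 CPM in any library. Whether reads are shared between these gene models cannot be followed from the counts.

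The pair gene.evm.model.1.36 and gene.evm.model.1.37 was followed by gene models that were also lower under chilling. gene.evm.model.1.38 had 240.3, 155.0 and 18.4 CPM in control and 4.18, 10.6 and 0.791 CPM in chilling replicates 1 to 3 (log2 fold change -4.32, SE 1.22, edgeR adjusted p = 0.0392). gene.evm.model.1.39 had 151.8, 231.5 and 99.2 CPM in control and 13.2, 44.8 and 7.37 CPM in chilling replicates 1 to 3 (log2 fold change -2.51, SE 0.73, edgeR adjusted p = 0.0421). Each of these calls was lost in 5 of the 6 fits that left out 1 library, with log2 fold changes from -5.39 to -3.67 and from -3.61 to -2.10. In all 4 gene models chilling replicate 2 was the highest and chilling replicate 3 the lowest chilling library. gene.evm.model.1.35, on the other side, had 69.0 to 80.0 CPM in control and 56.0 to 62.2 CPM in chilling libraries.

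The last pair was gene.evm.model.64319.156, with 24.3, 35.8 and 23.2 CPM in control and 3.25, 2.81 and 3.13 CPM in chilling replicates 1 to 3, and gene.evm.model.64319.157. The latter had 89.2, 101.7 and 87.6 CPM in control and 2.61, 6.59 and 19.9 CPM in chilling replicates 1 to 3. gene.evm.model.64319.158, next to it, had 69.0 to 74.3 CPM in control and 36.5 to 64.8 CPM in chilling libraries and did not pass the test (log2 fold change -0.35, SE 0.21, edgeR adjusted p = 0.255). The members of this pair differed in how evenly they fell: the first spread 1.16-fold and the second 7.62-fold among chilling libraries. gene.evm.model.64319.155, too weak for the rule, had 4.61, 5.61 and 3.42 CPM in control and 0.107, 0.163 and 0.506 CPM in chilling replicates 1 to 3 (log2 fold change -3.82, SE 0.62, edgeR adjusted p = 0.00788). gene.evm.model.64319.159 fell as well, from 458.4, 522.8 and 293.8 CPM to 79.9, 31.5 and 96.3 CPM (log2 fold change -2.30, SE 0.44, edgeR adjusted p = 0.0125). Both calls were kept in all 6 fits that left out 1 library.

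**Figure D5:**
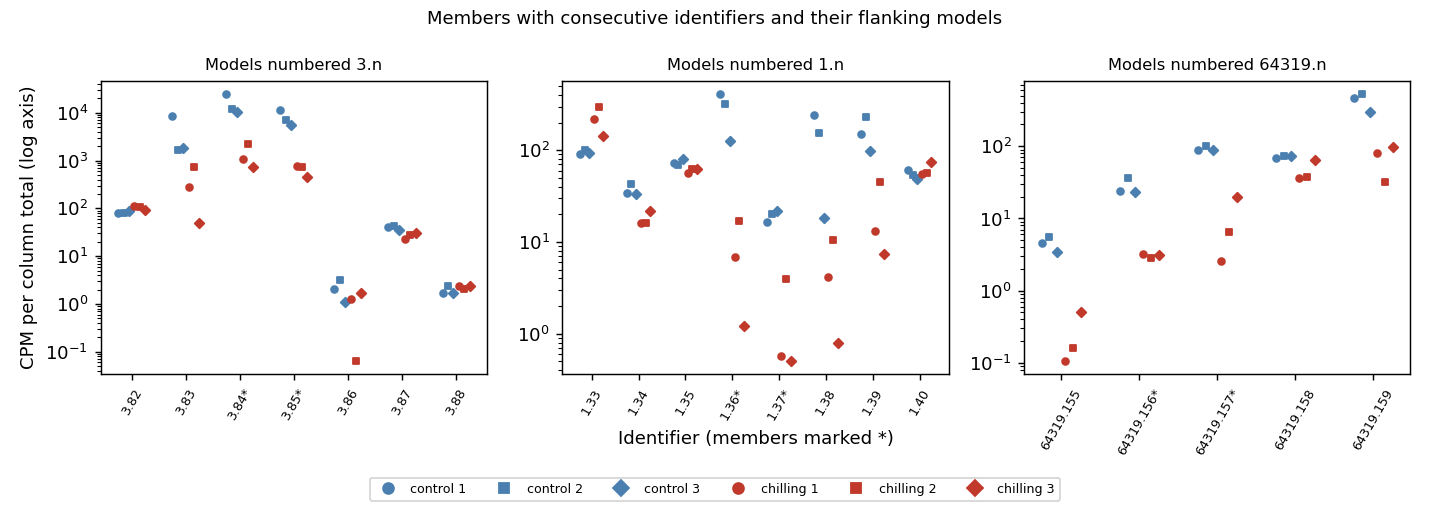
CPM (log axis) in each library of the 3 pairs of members with consecutive identifiers (marked *) and of the gene models up to 3 numbers away that the table holds; blue is control, red is chilling, and the marker shape is the replicate. Chilling points lie far below control points for the members and for some flanking gene models, such as gene.evm.model.1.38 and gene.evm.model.64319.155, and close to them for others, such as gene.evm.model.1.35.

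The neighbours of all members were then counted, whether or not they flanked a pair. Of 162 such gene models that were not members, 134 were tested, and 24 of them (17.9%) were called lower and 10 (7.46%) higher (edgeR, adjusted p under 0.05). Over all tested gene models 14.6% were called lower and 16.2% higher. The median log2 fold change next to a member was -0.26, against -0.02 over all, and at a distance of 2 numbers it was -0.08 with 25 of 131 (19.1%) lower. The difference between these shares was not tested. With total counts as library sizes, 41 of the 134 were called lower, where 23.2% of all tested gene models were. The count next to members was 12 without control replicate 1, 11 without control replicate 2, 9 without chilling replicate 1 and 15 without chilling replicate 2. The share called lower over all tested gene models dropped in the same fits, to 7.68%, 5.66%, 5.73% and 8.95%.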

How the data were processed

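The deposited table holds the authors' raw read counts for every gene model in 6 libraries, not normalized. The submitters' processing notes name FastQC, HISAT2 and featureCounts. Versions, genome build, annotation and strand setting are not stated, so reads shared by overlapping genes or near-identical copies cannot be followed. Groups and numbers came from the titles, and each column matched 1 title.

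CPM in the text use column totals. The test was edgeR 4.0.16 (R 4.3.3), quasi-likelihood F test with TMM factors and group as the only term, after filterByExpr (minimum count 10, total 15), fitted over all 19487 gene models kept, with Benjamini-Hochberg adjustment and a threshold of 0.05. It was tested on simulated data. SE was derived from the F statistic. SDs of log2 CPM used 0.5 added counts. Counting intervals cover counting error only. P-values set the difference between the groups against the spread between libraries, which may be partly technical. Alternatives included DESeq2 1.42.0 and limma-voom (limma 3.58.1).

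The members and the rules below were chosen with earlier results of these data known. Named gene models were the 5 with the highest control mean, the 5 with the widest gap and the 3 with the largest control range. Also named were the 3 with the largest chilling range among those with at least 10 counts in every chilling library. Those nearest the limits and members with consecutive numbers were named too. Flanking gene models were taken by identifier number. Libraries of the same group differed beyond sampling noise (chi-square per degree of freedom at least 98.2), so none was the same library deposited again; this does not bear on whether they came from separate plants. A short list of organ marker genes could not be applied without gene names.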

Additional observations from a re-analysis of the deposited data

How the results depend on the processing

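The number of members depended on the scaling and limits: 75 with TMM-scaled totals, 72 with median-of-ratios totals, 78 with a minimum of 20 CPM, 889 with a 2-fold limit, 15 with an 8-fold limit, 545 when group means were compared, and 566 without both libraries numbered 3. Leaving out 1 library gave 132 to 300. The scalings and the stricter limits left only members, and the looser limits and fewer libraries kept all 123. The members' share of counts differed between the groups by -3.56 to -2.48 percentage points without 1 library. In 14 alternative fits, 113 to 123 members were called lower, and 113 to 122 in the fits without 1 library. Over all tested gene models, 5.66% to 23.2% were called lower in the 14 fits. The rule used the same libraries, so nothing is read from the members' counts. In every fit 109 members were called, and 14 lost the call at least once. Among these was gene.evm.model.3.84 without chilling replicate 1 (edgeR adjusted p = 0.0642). No member had a positive fold change in any fit, which the 4-fold limit of the rule all but fixes beforehand. The median log2 fold change was -3.11 with total counts, and -2.88 to -2.74 without 1 library. Gene models next to members called lower numbered 41 with total counts and 9 to 25 without 1 library; these alternatives were added after seeing the data.

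With the replicate block, 122 members and 15 neighbours were called lower, where 8.05% of all tested gene models were. Deviations from the group means of same-numbered libraries correlated at 0.064, -0.0003 and -0.0089 across genes, so a shared number was not treated as a pairing. gene.evm.model.6.626 lost its call with the block (edgeR adjusted p = 0.12), with limma-voom, and without control replicate 2 or any chilling replicate, and DESeq2 gave it no adjusted p. Depth limits the residual of the members with few chilling counts, such as gene.evm.model.64444.52.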
